A study of Mus musculus with 2 samples.

Results

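Inflammatory myeloid effector genes were followed through single-cell RNA sequencing of Em-Ex and YS-Ex cultures. These were 8 of the 11691 genes of the UMI table: S100a8, S100a9, Spp1, Mmp12, Gpnmb, Ctss, Lyz2 and Ccl6. They were chosen by measured values of these cells, because their UMIs (unique molecular identifiers, each standing for 1 captured transcript) lay in few cells, the neutrophil-type and macrophage-type genes lay in different cells, and their level in mast-cell-rich cells was low. The concentration, the split and the level in Cpa3-high cells are therefore described here and not tested.

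Em-Ex are explants of intraembryonic tissue and YS-Ex are explants of yolk sac, both from C57/BL6 mouse concepti at E8.5 with 5 to 7 somite pairs. Both were cultured for 10 days, within the 9 to 10 days of the labels, with SCF, IL-3 and FLT3L at 100 ng/ml each, and a sort then took CD31+CD45+c-Kit+CD41- cells, with 8600 cells loaded per library. Each library pools cells of many concepti, and the files do not tie a cell to its conceptus. There was 1 library per tissue, so no difference between Em-Ex and YS-Ex has a replicate check, and tissue and library cannot be told apart. After the study's limits on genes and mitochondrial UMIs, 3071 Em-Ex cells (42752370 UMIs, median 12341 per cell) and 2087 YS-Ex cells (27031627 UMIs, median 11729 per cell) were left. The libraries shared 35 barcode sequences, of which 33 Em-Ex and 32 YS-Ex barcodes were kept; leaving these out moved none of the 40 member values recomputed without them by more than its own error.

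S100a8 and S100a9 pair as calprotectin, a calcium- and zinc-binding complex that fills the cytoplasm of neutrophils. Spp1 (osteopontin, a secreted phosphoprotein), Mmp12 (macrophage elastase), Gpnmb (a transmembrane glycoprotein of lysosome-laden phagocytes) and Ctss (cathepsin S, a lysosomal cysteine protease) are products of activated macrophages. Lyz2 (lysozyme M) and Ccl6 (a CC chemokine) are made by both lineages. Mast cells, which Cpa3 (carboxypeptidase A3, a granule protease) marks, are not thought to make most of them. S100a8 and S100a9 are called neutrophil-type, and Spp1, Mmp12, Gpnmb and Ctss macrophage-type, from this background knowledge.

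On mm10, by the GENCODE annotation, S100a8 (chr3:90668978-90670035, plus strand) and S100a9 (chr3:90692632-90695721, minus strand) are neighbors on chromosome 3, with 22596 bases between them. Ctss (chr3:95526786-95556403, plus strand) is on the same chromosome. The others are Spp1 (chr5:104435118-104441050, plus strand), Gpnmb (chr6:49036546-49070929, plus strand), Mmp12 (chr9:7344381-7369499, plus strand), Lyz2 (chr10:117277331-117282321, minus strand) and Ccl6 (chr11:83587882-83593087, minus strand). All 8 are annotated as protein coding.

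Since the results turn on which members share a cell, the bases upstream of the start are shown for both neutrophil-type genes and for Ctss and Gpnmb of the macrophage-type genes. They are RefSeq sequences on GRCm38.p6, 5′ to 3′ on the gene's own strand, up to 250 bases before the start. The S100a8 stretch (chr3:90668821-90668977) stops after 157 bases, where the GENCODE exon begins. The others are S100a9 at chr3:90695722-90695971, Ctss at chr3:95526536-95526785 and Gpnmb at chr6:49036268-49036517. Capitals mark, on either strand, the PU.1 core GGAAGT or the C/EBP motif TTGCNNAA; PU.1 and C/EBP are transcription factors of myeloid cells.
S100a8: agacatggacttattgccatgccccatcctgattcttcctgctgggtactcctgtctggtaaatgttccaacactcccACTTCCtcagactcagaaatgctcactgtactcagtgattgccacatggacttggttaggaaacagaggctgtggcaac
S100a9: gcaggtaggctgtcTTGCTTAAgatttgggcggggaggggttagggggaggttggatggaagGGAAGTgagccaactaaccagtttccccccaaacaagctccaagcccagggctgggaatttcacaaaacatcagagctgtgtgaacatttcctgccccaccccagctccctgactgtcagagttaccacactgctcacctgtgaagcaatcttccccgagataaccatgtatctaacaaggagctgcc
Ctss: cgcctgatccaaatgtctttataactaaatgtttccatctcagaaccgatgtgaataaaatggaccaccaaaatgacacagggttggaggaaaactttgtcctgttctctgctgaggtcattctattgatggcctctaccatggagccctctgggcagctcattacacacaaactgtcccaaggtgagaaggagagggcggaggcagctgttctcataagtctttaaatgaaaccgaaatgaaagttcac
Gpnmb: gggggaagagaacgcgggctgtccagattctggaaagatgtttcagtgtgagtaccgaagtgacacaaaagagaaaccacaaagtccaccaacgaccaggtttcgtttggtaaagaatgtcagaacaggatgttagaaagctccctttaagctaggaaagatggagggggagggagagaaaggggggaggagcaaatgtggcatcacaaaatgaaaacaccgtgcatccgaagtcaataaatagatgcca

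S100a8 had 1 GGAAGT match, read on the minus strand, and 11.2% of all stretches of its length had one. S100a9 had 1 GGAAGT and 1 TTGCNNAA match, which 19.8% and 9.57% of the 250-base stretches of 32526 distinct RefSeq promoters held. Neither motif was in the Ctss or Gpnmb stretch, and the AP-1 motif TGANTCA was in none of these 4. RefSeq stretches were found for all 8 members. These matches describe the letters and say nothing of binding.

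The 8 genes were carried by few cells in both libraries. The 1% of cells with most UMIs (31 Em-Ex and 21 YS-Ex cells, taken for each gene by itself) held 68.6% to 99.5% of a member's UMIs in Em-Ex and 81.9% to 100% in YS-Ex. For comparison, the median over genes with at least 200 UMIs was 10.6% over 8497 Em-Ex genes and 9.52% over 7589 YS-Ex genes, and 53 and 19 genes reached the lowest member.

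The neutrophil-type pair needed the fewest cells for 90% of its UMIs. In Em-Ex, 3 cells held 90% of the 1670 S100a8 UMIs and of the 1454 S100a9 UMIs. In YS-Ex, 3 cells held 90% of the 3969 S100a8 UMIs and of the 2959 S100a9 UMIs. A share of 90% was reached by the same small number of cells in both libraries and for both subunits of calprotectin. By the share in the top 1% of cells, Mmp12 in YS-Ex was higher still, at 100% against 98.8% for S100a8 and 98.6% for S100a9.

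The macrophage-type genes were spread over more cells, unequally among themselves. Spp1 had 5219 UMIs in Em-Ex, and 1 cell held 2128 of them (40.8%), while 65 cells were needed for 90%. Of the 630 Spp1 UMIs in YS-Ex, 1 cell held 300 (47.6%), and 55 cells were needed for 90%. In each library 2 cells held 50% of the osteopontin UMIs. Mmp12 was narrower, with 90% of its 526 Em-Ex UMIs in 26 cells and 90% of its 214 YS-Ex UMIs in 4 cells, 1 of which held 151 (70.6%). Gpnmb differed between the libraries in its spread. In Em-Ex, 135 cells held 90% of its 843 UMIs, and in YS-Ex 15 cells held 90% of 669 UMIs, with 257 (38.4%) in 1 cell. Ctss was the widest of the 4 in Em-Ex, with 90% of 1217 UMIs in 155 cells, against 45 cells for 90% of 409 UMIs in YS-Ex.

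Lyz2 and Ccl6, the members of both lineages, were also broader than the calprotectin pair. Lyz2 needed 161 Em-Ex cells for 90% of 5099 UMIs and 25 YS-Ex cells for 90% of 1503 UMIs. Ccl6 needed 154 Em-Ex cells for 90% of 3489 UMIs and 48 YS-Ex cells for 90% of 1922 UMIs, 675 of which (35.1%) were in 1 cell. A pooled level of any member is therefore set by few cells, and fewer expressing cells cannot be told apart there from less RNA per cell.

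**Figure D1:**
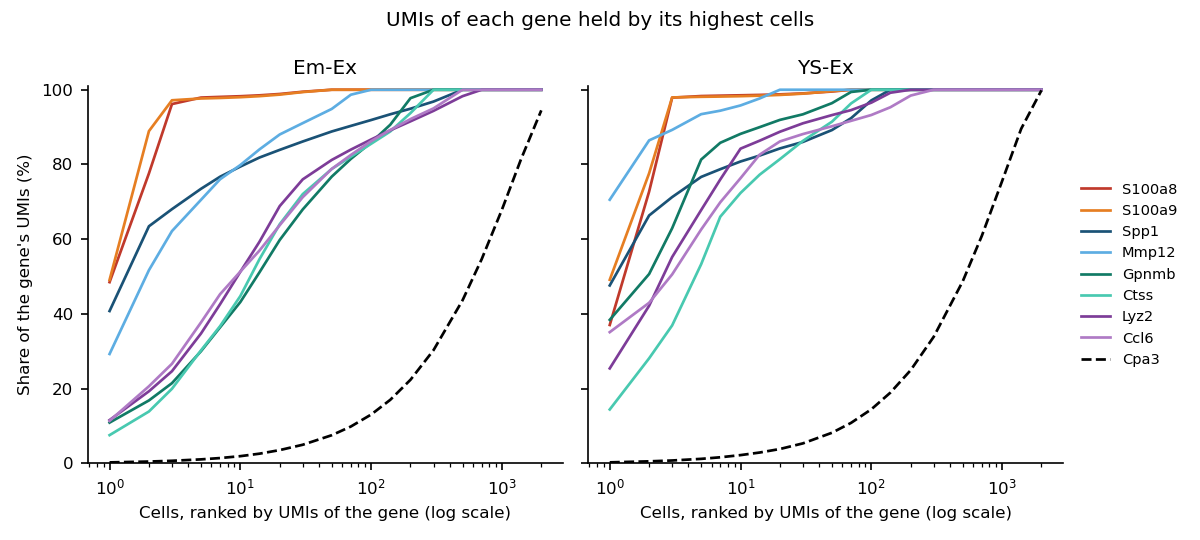
Share of a gene's UMIs (percent) held by its highest cells, against the number of cells on a log scale, for the 8 members and for Cpa3 in the filtered cells of each library. S100a8 and S100a9 pass 90% at 3 cells, Spp1 needs 65 Em-Ex and 55 YS-Ex cells, and the Cpa3 line climbs last.

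Cells were called high for a set where its summed level was at least 1000 CPM (counts per 1000000 UMIs of the cell). The neutrophil-type limit fell in a wide gap. In Em-Ex, 3 of 3071 cells were high (0.0977%, exact Clopper-Pearson 95% interval 0.0202 to 0.285), the lowest inside at 16403 CPM and the highest outside at 708 CPM. In YS-Ex, 3 of 2087 cells were high (0.144%, 0.0297 to 0.420), the lowest inside at 193769 CPM and the highest outside at 812 CPM. The macrophage-type limit cut through a continuum. There, 53 Em-Ex cells and 14 YS-Ex cells were high, with 1002 against 977 CPM on either side of the limit in Em-Ex and 1216 against 861 CPM in YS-Ex, and 58 and 9 cells were within 2-fold of it. All intervals here cover counting error only.

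The sets were in separate cells, with 1 exception. In Em-Ex 0 of 3071 cells were high for both, which allows a share of up to 0.0977% (3 counts of the total), and in YS-Ex 1 of 2087 was. Among cells with at least 20 UMIs of the 6 genes together, S100a8 and S100a9 made up under 10% in 35 of 39 Em-Ex cells and over 90% in 3, with 1 between. The YS-Ex cells were 9 under 10% and 3 over 90% of 13, with 1 between. The cell in both classes had 1470 S100a8 and 601 S100a9 UMIs beside 10 Ctss and 3 Spp1 UMIs.

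**Figure D2:**
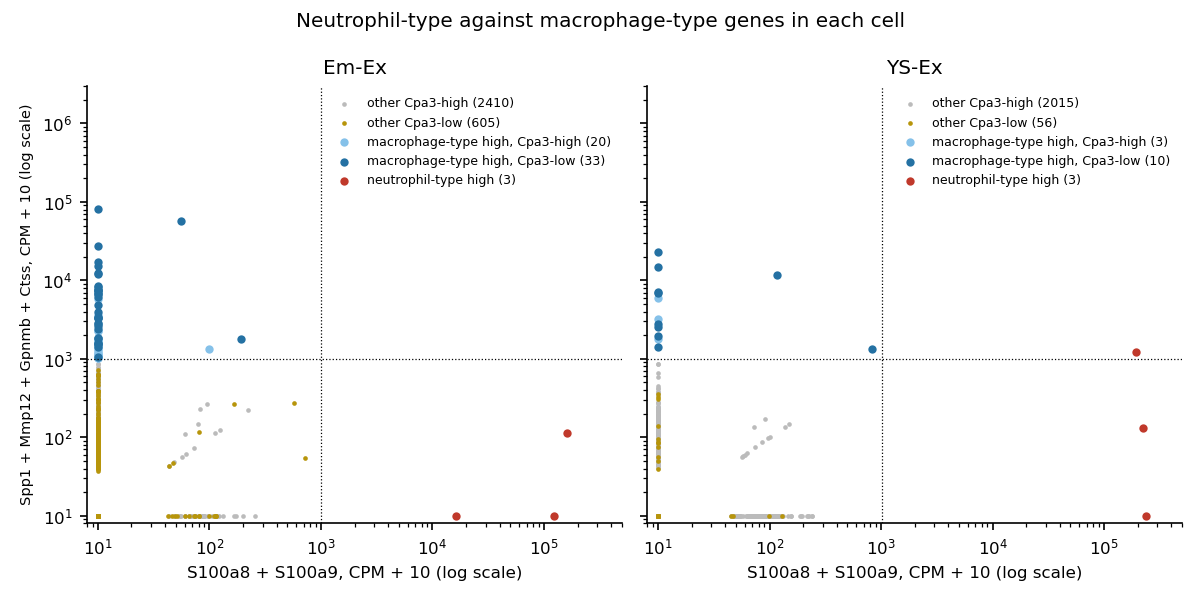
Summed level of Spp1, Mmp12, Gpnmb and Ctss against that of S100a8 and S100a9 (CPM plus 10, log scales), 1 point per filtered cell, colored by the classes of the text, with dotted lines at 1000 CPM. The 3 neutrophil-type cells of each library sit far right, 1 of them in YS-Ex just above the macrophage-type line.

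The 3 Em-Ex cells high for the neutrophil-type genes were not alike. The first had 810 S100a8 and 714 S100a9 UMIs, with 35 of Lyz2 and 19 of Ccl6. The second had 486 S100a8, 579 S100a9 and 223 Lyz2 UMIs. The third, at 26214 UMIs the deepest of the 3, had 310 S100a8, 120 S100a9 and 3 Lyz2 UMIs, together with 87 of Mpo, 229 of Elane and 123 of Prtn3, which encode the primary granule proteins of neutrophil progenitors. The first had no UMI of those 3 genes, and the second had 1 of Elane and 5 of Prtn3. Primary granule RNA was thus measured in 2 of the 3 cells, and in number only in the third.

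In the 3 YS-Ex cells calprotectin RNA was present in number throughout. Their S100a8 and S100a9 UMIs were 1417 and 1454 in the first cell, 998 and 843 in the second, and 1470 and 601 in the third. Lyz2 had 196, 382 and 95 UMIs in these cells, and Ccl6 0, 13 and 2. Mpo, Elane and Prtn3 together had 1 UMI in the 3 cells, of Prtn3. Pooled over its 3 cells, S100a8 had 36169 CPM in Em-Ex against 125250.0 CPM in YS-Ex, and S100a9 31822 against 93429.6 CPM. The third Em-Ex cell held 26214 of the 44403 UMIs of its group. Without the deepest cell of each library, S100a8 was at 71252 CPM (67425 to 75239) in Em-Ex against 130114 CPM (125031 to 135351), and S100a9 at 71087 CPM (67264 to 75070) against 76128 CPM (72252 to 80158), with overlapping intervals for S100a9.

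Lyz2 entered these cells in both libraries. It reached 5878 CPM in the Em-Ex cells, which held 5.12% of that library's Lyz2 UMIs, and 21697 CPM in the YS-Ex cells, which held 44.8%. Ccl6 was at 428 and 484 CPM, under 1% of its UMIs. Of the macrophage-type genes, Mmp12 and Gpnmb had no UMI in these 6 cells.

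The other genes of these 6 cells were read from marker and pathway lists, against the Cpa3-high cells that were high for neither set. A gene was called higher at 2-fold or more, among those past a floor on level. In Em-Ex, 29% of 1678 genes were called higher in the neutrophil-type cells, and so were the 4 members past the floor (S100a8, S100a9, Lyz2 and Ccl6). In YS-Ex, 31.5% of 1218 genes and the 5 members past the floor were called. The cells were chosen by S100a8 and S100a9 and a member could pass the floor through them alone, so nothing is read from the member counts. A listed gene low in the comparison cells could also pass the floor only through these cells, and its call as higher was then set by the floor. With such broad shifts in so few UMIs, list counts carry little by themselves.

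Among 14 neutrophil markers, 4 were in the table. Mmp8 (neutrophil collagenase) had 71 UMIs in the YS-Ex cells (2289 CPM against 1.57 CPM in the comparison cells) and 0 in the Em-Ex cells. Csf3r, the G-CSF receptor, had 2 UMIs in the Em-Ex cells and Cxcr2 had 0. Both are listed at 0 in every YS-Ex barcode, as is Elane, and no gene with UMIs in this library had them in fewer than 30 barcodes. Their 0 is thus no measured absence from the YS-Ex cells. The other 10 markers, among them those of secondary granules, were not analysed here. The cells were chosen by the calprotectin pair, which therefore does not support their label. Mmp8 was also at 208 CPM in the Em-Ex and 905 CPM in the YS-Ex Cpa3-low cells high for the macrophage-type genes, so in these data it was not particular to the neutrophil-type cells.

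Of 5 neutrophil progenitor markers in the table, 4 were called higher in Em-Ex (summed 10157 against 37.2 CPM), mostly from the third cell, and none passed the floor in YS-Ex, where Elane and Ctsg are listed at 0 in every barcode. The 13 macrophage markers read summed to 203 CPM in the Em-Ex cells against 213 CPM in the comparison cells, with 7 at 0. In YS-Ex they summed to 2031 against 119 CPM, with 8 at 0 and Apoe (apolipoprotein E) giving 55 UMIs. The 12 mast cell markers summed to 586 against 41912 CPM in Em-Ex and to 645 against 45561 CPM in YS-Ex. Kit, whose protein the sort selected, had 0 UMIs in the Em-Ex cells and 1 in the YS-Ex cells.

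Of 4 other S100 genes past the floor, 1 was higher and 3 were lower in Em-Ex (median log2 ratio -2.37), and 2 were higher and 1 lower in YS-Ex (1.91). S100a11 was at 1509 against 377 CPM in Em-Ex and 4320.1 against 259.9 CPM in YS-Ex, and S100a6 at 22.5 against 311 CPM in Em-Ex and 5223 against 247 CPM in YS-Ex. Every phagocyte transcription factor past the floor was higher, which were 3 in the Em-Ex cells and 2 in the YS-Ex cells. Spi1, which encodes PU.1, was at 495 against 119 CPM in Em-Ex and 451 against 90.8 CPM in YS-Ex. Cebpb, which encodes a C/EBP factor, was at 135 against 13.8 CPM and 193 against 23.4 CPM. The median log2 ratio over all genes past the floor was 0.34 in Em-Ex and 0.29 in YS-Ex.

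The macrophage-type cells fell on both sides of the mast cell marker. Of the 53 Em-Ex cells, 33 were Cpa3-low (under 2000 CPM of Cpa3) and 20 were Cpa3-high, and of the 14 YS-Ex cells, 10 were Cpa3-low, 3 Cpa3-high and 1 the neutrophil-type cell above. In the 33 Em-Ex cells, Spp1 was at 9264 CPM, Ctss at 1728, Gpnmb at 1052 and Mmp12 at 904. In the 10 YS-Ex cells, Gpnmb was at 3386 CPM, Spp1 at 3050.4, Ctss at 1723 and Mmp12 at 1280.5. The neutrophil-type genes were near absent there, with 2 S100a8 and 0 S100a9 UMIs in the Em-Ex cells and 17 and 5 in the YS-Ex cells, 15 and 4 of them at most in a cell. The mitochondrial share of UMIs ran from 0.114% to 4.78% in these Em-Ex cells and from 0.0937% to 4.25% in these YS-Ex cells. In the Cpa3-high macrophage-type cells it ran from 2.05% to 4.97% and from 2.47% to 4.03%. What the lowest shares say of RNA quality was not tested.

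The macrophage-type cells did not share 1 profile of the 4 genes. Spp1 had the most UMIs of the 4 in 13 of the 33 Em-Ex cells, Ctss in 11, Gpnmb in 7 and Mmp12 in 2, a tie counting for the gene listed first in the sets. All 4 were detected in 11 cells and only 1 in 4 cells. Osteopontin had 0 UMIs in the lowest of these cells, a median of 9 and 2128 in the highest, so 1 cell gave 2128 of the 4316 UMIs. Ctss, from 0 through a median of 18 to 92 UMIs, was the more even gene. In the 10 YS-Ex cells, Ctss led in 5, Gpnmb in 3, and Spp1 and Mmp12 in 1 each. Ctss was detected in all 10 and Spp1 in 4.

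Pairs of members met in some cells and not in others. At 1000 CPM or more, the protease gene Ctss and the lysozyme gene Lyz2 met in 19 of the 33 Em-Ex cells (22 and 23 cells each). Spp1 and Ctss met in 9 (16 and 22 cells each). The 4 cells at that level of Mmp12 were all at that level of Ctss, and 3 of them of Spp1. Gpnmb met Lyz2 in 13 and Spp1 in 7 of its 15 cells.

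Lyz2 and Ccl6 followed the macrophage-type cells in Em-Ex. In the 33 Cpa3-low cells, Lyz2 was at 6707 CPM and Ccl6 at 4643 CPM, and these cells held 61.3% and 62.0% of the library's UMIs of the genes. In the 10 YS-Ex cells, Lyz2 was at 3667 CPM (36.4% of its UMIs) and Ccl6 at 8883 CPM (68.9%). The YS-Ex neutrophil-type cells thus held a larger share of Lyz2 than the macrophage-type cells, and the Em-Ex ones a smaller share.

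**Figure D3:**
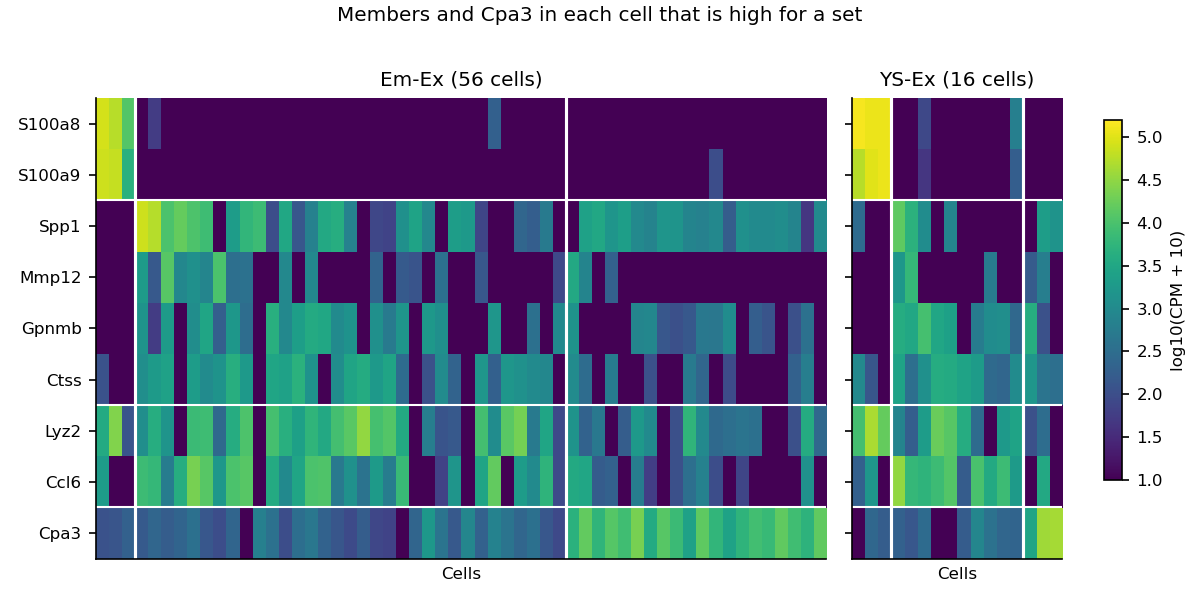
Level of the 8 members and of Cpa3, as log10(CPM + 10), in each cell that was high for a set (56 Em-Ex and 16 YS-Ex cells, 1 column each); white lines separate, from left, neutrophil-type cells, macrophage-type Cpa3-low cells and macrophage-type Cpa3-high cells. S100a8 and S100a9 are bright in the leftmost 3 columns of each library and have at most 15 UMIs a cell elsewhere, while the mix of Spp1, Mmp12, Gpnmb and Ctss changes from column to column.

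Macrophage markers accompanied the macrophage-type genes. The cells were chosen by the summed macrophage-type genes, so the calls of those 4 genes restate that choice. All members past the floor were called higher, 6 of them among the Em-Ex cells and 8 among the YS-Ex cells, and nothing is read from these counts. In the 33 Em-Ex cells, 18.4% of 5342 genes were called higher, and 12 of 13 macrophage markers were (median log2 ratio 5.71, against 0.09 over all genes past the floor). Apoe was at 2591 against 55.7 CPM, the complement genes C1qb at 1543 against 21.6 CPM and C1qc at 1013 against 15.8 CPM, and Cd68 (a lysosomal glycoprotein) at 753 against 38.5 CPM. The marker within 2-fold was Cx3cr1, the fractalkine receptor. In the 10 YS-Ex cells, 25.3% of 4468 genes were called, and 11 of 12 macrophage markers (median 6.78, against 0.23), with Cx3cr1 lower. Apoe was at 3654 against 17.4 CPM, Cd68 at 851 against 19.3 CPM and Mrc1, the mannose receptor, at 737 against 0.653 CPM. The markers summed to 8266 against 213 CPM in Em-Ex, none at 0, and to 7851 against 119 CPM in YS-Ex, with 1 at 0. Markers of other cell types moved too. In the Em-Ex cells, 2 of 2 dendritic markers past the floor (summed 496 against 9.58 CPM over the list), 3 of 3 neutrophil markers (281 against 2.23 CPM) and 2 of 2 stromal markers (75.1 against 5.19 CPM) were higher. Of the 35 stromal UMIs, 29 were in 2 cells, and 28 of the 33 cells had none. In the YS-Ex cells, 1 of 1 dendritic marker (114 against 8.41 CPM) and 1 of 1 neutrophil marker (905 against 1.57 CPM) were. Stromal markers could hardly be measured there, since 3 of the 4 are listed at 0 in every YS-Ex barcode. Their part in the result was not tested.

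Genes of lysosomes and lipid handling were higher with them, 13 of 16 in Em-Ex (median log2 ratio 3.34) and 14 of 16 in YS-Ex (3.67). Fabp5, a fatty acid binding protein, was at 10485 against 189 CPM in Em-Ex and 11933 against 71.1 CPM in YS-Ex. Lgals3 (galectin 3) was at 6826 against 232 CPM and 8092 against 182 CPM, and the lysosomal protease Ctsb at 3874 against 159 CPM and 5323 against 94.2 CPM. Ctsd, another lysosomal protease, stayed within 2-fold in Em-Ex at 2983 against 1617 CPM.

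CC chemokines, the family of Ccl6, were higher in all 7 cases past the floor in each library (median log2 ratio 6.37 in Em-Ex and 7.74 in YS-Ex). Ccl2, which draws monocytes, was at 1797 against 21.7 CPM in Em-Ex and 1495 against 5.45 CPM in YS-Ex. Ccl9 was at 1668 against 27.3 CPM and 1596 against 29.1 CPM, and Ccl12 at 1238 against 8.63 CPM and 2105 against 6.22 CPM. Ccl12 in both libraries, and Ccl2 and Ccl9 in YS-Ex, were under the floor in the comparison cells and could pass it only through the high cells. Nothing is therefore read from the count of 7.

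Partners of the members were mixed. Of the receptors, 4 of 6 were higher in Em-Ex (median 1.97) and 6 of 8 in YS-Ex (2.63), with Itga4, an integrin subunit that binds osteopontin, lower in YS-Ex. Cd44, another osteopontin receptor, was at 157 against 39.3 CPM in Em-Ex and 201 against 36.0 CPM in YS-Ex. Ccr1, a receptor of CC chemokines, was at 199.6 against 52.7 CPM and 215 against 32.2 CPM. The cystatins Cstb and Cst3, inhibitors of cysteine proteases such as Ctss, were higher in both libraries, and Cst7, a cystatin too, was lower in both, at 38.6 against 257 CPM in Em-Ex and 6.70 against 176 CPM in YS-Ex.

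Among proteases of the matrix and their inhibitors, 3 of 3 in Em-Ex (median log2 ratio 6.97) and 2 of 2 in YS-Ex (8.51) were higher, with Mmp8 at 208 against 1.51 CPM and 905 against 1.57 CPM and the inhibitor Timp2 at 159 against 1.64 CPM and 342 against 1.46 CPM. Mmp8 and Timp2 were under the floor in the comparison cells and could pass it only through the high cells, so nothing is read from these counts. Mmp8, counted above among neutrophil markers, was thus also in these cells. Of the phagocyte transcription factors, 5 of 6 (median 4.28) and 4 of 5 (3.22) were higher, with Spi1 at 296 against 119 CPM and 315 against 90.8 CPM. Of the other S100 genes, 4 of 6 were higher in each library (medians 1.33 and 2.22).

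Mast cell markers were low in these cells, Cpa3 by the choice of the cells. The 12 markers summed to 1571 against 41912 CPM in Em-Ex and 737 against 45561 CPM in YS-Ex. Pf4, listed among megakaryocyte markers, was at 1359 against 14.6 CPM in Em-Ex and 5450.5 against 11.9 CPM in YS-Ex, while Itga2b, which encodes CD41, had 0 UMIs in the Em-Ex cells. Kit was at 26.8 CPM in the YS-Ex cells and at 30.05 CPM in those of Em-Ex, against 987 and 335 CPM in the Cpa3-high cells high for neither set. The Kit level of these cells thus lay under that of the other sorted cells, and how they came through the c-Kit gate was not tested.

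The Cpa3-high cells above the macrophage-type limit had lower pooled member levels and carried RNA of mast cell markers. Over the 20 Em-Ex cells, Spp1 was at 1004 CPM, Gpnmb at 321 CPM, Ctss at 196 CPM and Mmp12 at 125 CPM, and Spp1 had the most UMIs of the 4 in 16. The median of Spp1 was 8.5 UMIs a cell, and its highest was 38. By the median over cells Spp1 was not lower, at 1008 CPM against 914 CPM in the 33 Cpa3-low cells, while Gpnmb was at 120 against 982 CPM and Ctss at 0 against 1322 CPM. Of all genes past the floor, 10% of 4906 were called higher, with the 6 members among them, from which again nothing is read. Of 11 macrophage markers 10 were higher (median log2 ratio 3.52, against 0.10 over all genes past the floor), with Apoe at 1174 against 55.7 CPM. Markers of other cell types were higher too, with neutrophil markers summing to 75.9 against 2.23 CPM and dendritic markers to 112 against 9.58 CPM, and their part in the result was not tested. The mast cell markers, with Cpa3 that defined the class among them, summed to 28093 against 41912 CPM, and Kit was at 357 CPM. RNA of both kinds was thus present in the pool of these 20 cells. It was not spread over every barcode alike, since some had no UMI of Csf1r, C1qa, Cd68 or Adgre1.

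The 3 YS-Ex cells of this kind had Gpnmb at 2142 CPM, 82 of its 83 UMIs in 1 cell, and Ctss at 1006 CPM. That cell also had 32 of the 39 Ctss UMIs, 15 of Cd68 and 8 of Adgre1 (the F4/80 antigen of macrophages), and its Cpa3, at 2967 CPM, was near the limit, against 40399 and 43368 CPM in the other two. Of all genes past the floor, 19.8% of 1295 were called higher, with the 6 members among them, and so were 4 of 4 macrophage markers. So were 1 of 1 dendritic marker (181 against 8.41 CPM over the list) and 1 of 1 lymphoid marker (181 against 80.5 CPM), whose part in the result was not tested. The mast cell markers of the 3 cells summed to 51459 against 45561 CPM, and Pf4 was at 5445 against 11.9 CPM. The upper limit on genes was meant by the study to leave out doublets too. No doublet caller was run, and whether these barcodes held 2 cells was not tested. Their median depth of 8766.5 UMIs in Em-Ex and 9827 in YS-Ex was below the 11363 and 11752 UMIs of the other Cpa3-high cells.

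The members were next compared between Cpa3-low and Cpa3-high cells, the latter of a type not thought to make most of them. In Em-Ex, Cpa3-low cells (641) were compared with Cpa3-high cells (2430), and in YS-Ex 69 with 2018. All 8 members were at least 2-fold higher in the Cpa3-low cells of both libraries, as were 19.2% of 9110 Em-Ex genes and 15.7% of 9301 YS-Ex genes. For the members the median log2 ratio was 3.46 in Em-Ex, beside 0.31 over all genes past the floor, and 7.01 in YS-Ex, beside 0.21.

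The calprotectin genes were near absent from Cpa3-high cells. S100a8 was at 137 CPM in Cpa3-low and 0.749 CPM in Cpa3-high Em-Ex cells, and at 4136 and 2.45 CPM in YS-Ex. S100a9 was at 119 and 0.814 CPM in Em-Ex and at 3078 and 2.03 CPM in YS-Ex. The highest Cpa3-high cell had 2 UMIs of S100a8 and 1 of S100a9 in both libraries, so no cell of that class carried the pair in number. A S100a8 UMI was found in 22 of 2430 Em-Ex Cpa3-high cells (0.905%) and in 62 of 2018 YS-Ex ones (3.07%). At 3000 UMIs per cell these shares were 0.247% (0.0907 to 0.537) and 0.842% (0.491 to 1.35), against 1.56% and 7.25% of Cpa3-low cells, whose median depths were 18290 UMIs in Em-Ex and 11142 in YS-Ex beside 11343 and 11751 in Cpa3-high cells.

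Spp1 behaved differently in Em-Ex. It was at 368 CPM in Cpa3-low and 25.4 CPM in Cpa3-high cells, yet the share of cells with a Spp1 UMI at 3000 UMIs per cell was 5.15% (3.57 to 7.15) in Cpa3-low and 5.60% (4.72 to 6.59) in Cpa3-high cells. The level separated the classes and the share of cells did not, so no order is read from the share. Of the Em-Ex Cpa3-high cells, 246 had 1 Spp1 UMI, 59 had 2, 49 had 3 to 9 and 11 had 10 or more. In YS-Ex, Spp1 was at 489 and 6.44 CPM, and 2 of 2018 Cpa3-high cells had 10 or more UMIs. Osteopontin RNA in the Em-Ex Cpa3-high cells therefore included cells with several UMIs, unlike S100a8.

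The other macrophage-type genes were likewise lower in Cpa3-high cells. In Em-Ex, Mmp12 was at 35.8 CPM in Cpa3-low and 3.06 CPM in Cpa3-high cells, Gpnmb at 46.5 and 9.19, and Ctss at 81.1 and 7.79. In YS-Ex, Mmp12 was at 202 and 0.882 CPM, Gpnmb at 541 and 6.06, and Ctss at 306 and 4.60. Gpnmb had the smallest Em-Ex ratio, 5.06 (95% interval 4.38 to 5.86). Lyz2 was at 330 and 36.5 CPM in Em-Ex and 1382 and 7.59 in YS-Ex, and Ccl6 at 203 and 34.0 and at 1565 and 17.02. Some Em-Ex Cpa3-high cells had many UMIs of these genes, up to 105 of Lyz2 and 69 of Ccl6.

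**Figure D4:**
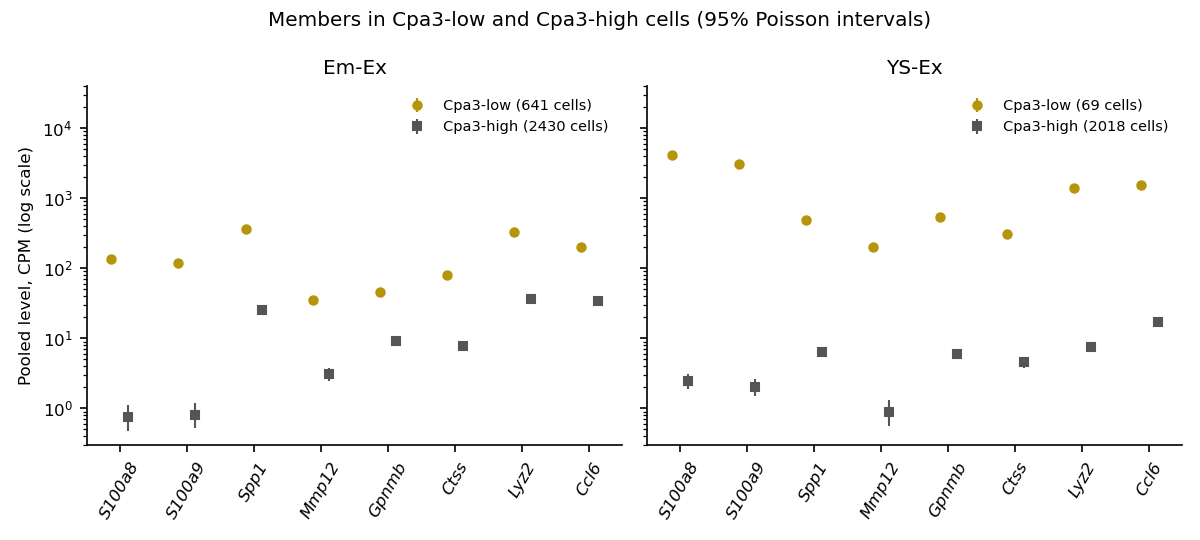
Pooled level of each member (CPM, log scale) in Cpa3-low and Cpa3-high cells of each library, with exact Poisson 95% intervals, most of them narrower than the symbols. Every Cpa3-low point lies above its Cpa3-high point, and S100a8 and S100a9 of Em-Ex reach lowest, at 0.749 and 0.814 CPM.

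Ratios of the members to each other were compared between the cell classes. S100a9 over S100a8 in UMIs was 0.868 (0.808 to 0.932) in Em-Ex Cpa3-low and 1.09 (0.592 to 2.00) in Cpa3-high cells, and 0.744 (0.709 to 0.781) and 0.828 (0.564 to 1.21) in YS-Ex. The intervals overlapped, those of the Cpa3-high cells being wide. Gpnmb over Spp1 was 0.126 (0.116 to 0.138) in Cpa3-low and 0.362 (0.315 to 0.415) in Cpa3-high Em-Ex cells, and Ccl6 over Spp1 was 0.551 (0.524 to 0.579) and 1.34 (1.22 to 1.47). These Em-Ex ratios rested on 2 cells with most of the osteopontin UMIs. Without the Cpa3-low cell with most Spp1, Gpnmb over Spp1 was 0.226 (0.205 to 0.248) there and Ccl6 over Spp1 0.968 (0.913 to 1.03), and without 2 such cells they were 0.462 (0.416 to 0.513) and 1.86 (1.73 to 2.00), above the Cpa3-high values. In YS-Ex the intervals of these ratios overlapped with all cells, with Gpnmb over Spp1 at 1.11 (0.973 to 1.26) and 0.940 (0.752 to 1.18) and Ccl6 over Spp1 at 3.20 (2.88 to 3.56) and 2.64 (2.21 to 3.18). The overlap ended without the YS-Ex Cpa3-low cell with most Spp1, which left Gpnmb over Spp1 at 2.65 (2.21 to 3.19) and Ccl6 over Spp1 at 4.96 (4.18 to 5.91). Lyz2 over Spp1 did not overlap with all cells and went opposite ways, at 0.896 (0.859 to 0.936) in Cpa3-low and 1.44 (1.31 to 1.58) in Cpa3-high Em-Ex cells, and 2.82 (2.54 to 3.15) and 1.18 (0.955 to 1.46) in YS-Ex. The Em-Ex order turned without the Cpa3-low cell with most Spp1, at 1.71 (1.62 to 1.798). Mmp12 over Spp1 was 0.413 (0.347 to 0.490) in Cpa3-low and 0.137 (0.0845 to 0.212) in Cpa3-high YS-Ex cells. In the Cpa3-low YS-Ex cells it was 0.969 (0.773 to 1.21) without the 1 with most Spp1 and 0.136 (0.0475 to 0.321) without 2. S100a8 over Spp1 was higher in Cpa3-low cells of both libraries, at 0.371 (0.350 to 0.393) against 0.0295 (0.0186 to 0.0446) in Em-Ex and 8.45 (7.67 to 9.33) against 0.381 (0.281 to 0.511) in YS-Ex. Without the 2 Cpa3-low cells with most Spp1 it was 1.46 (1.35 to 1.58) in Em-Ex and 88.8 (66.0 to 122) in YS-Ex. Leaving them out removed Spp1 and almost no S100a8, so the ratio could only rise, and its direction was not tested. The 3 neutrophil-type cells of Em-Ex held 1606 of the 1647 S100a8 UMIs of its Cpa3-low cells. Those of YS-Ex held 3885 of 3905. The S100a8 ratios of Cpa3-low cells thus rested on these cells, and they were not computed without them. The profile of RNA free in the suspension was not measured, and where each UMI came from was not tested.

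The Cpa3-low cells that were high for neither set had member levels on both sides of those in the matching Cpa3-high cells. In the 605 such Em-Ex cells, Spp1 was at 10.7 CPM and Mmp12 at 0.953 CPM, each lower than in the Cpa3-high cells high for neither set (18.2 and 2.17 CPM). Ctss was at 14.9 CPM against 6.40 CPM and Lyz2 at 51.4 against 27.8 CPM, with 7 cells of each class at 1000 CPM or more of Lyz2. Their median depth was 18836 UMIs. In the 56 such YS-Ex cells, Lyz2 was at 111 CPM against 7.41 CPM, Ccl6 at 181 against 15.8 CPM, Ctss at 27.5 against 3.11 CPM and Gpnmb at 7.85 against 2.88 CPM, while Spp1 was at 5.24 against 5.14 CPM. A single cell held 59 of the 85 Lyz2 UMIs and a single cell 119 of the 138 Ccl6 UMIs of those 56.

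Between the libraries, pooled levels of the members went both ways. Of the 8, 2 were at least 2-fold higher in Em-Ex, as were 5.75% of 8890 genes, and 2 were at least 2-fold higher in YS-Ex, as were 10.1%. The median log2 ratio of the members was 0.42, against -0.02 over all genes past the floor. The Em-Ex count changed with the cells used: it was 0 over every deposited barcode and 4 without each gene's highest cell of each library. The YS-Ex count was 2, of S100a8 and S100a9, under the 8 alternatives run.

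Calprotectin RNA was higher in YS-Ex. In Em-Ex S100a8 stood at 39.1 CPM, which was 0.266 times (0.251 to 0.282) the 147 CPM of YS-Ex, and S100a9 at 34.0 CPM was 0.311 times (0.292 to 0.331) its 109 CPM. Both libraries had 3 cells over the neutrophil-type limit, and without those 3 the S100a8 ratio was 0.482 (0.342 to 0.675) and the S100a9 ratio 0.425 (0.279 to 0.642). The cells left had up to 17 S100a8 UMIs in Em-Ex and up to 15 in YS-Ex.

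Spp1 was 5.24 times as high in Em-Ex (4.82 to 5.70, 122 against 23.3 CPM), and 5.92 times (5.28 to 6.65) without each library's top cell. Lyz2 was at 119 and 55.6 CPM, a ratio of 2.15 (2.02 to 2.27). Over every deposited barcode the log2 ratios of both genes were 0.92 and 0.82. These were the 2 genes past 2-fold in Em-Ex.

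The other members were less separated, and leaving out each gene's highest cell of each library moved some of them. Ctss was at 28.5 and 15.1 CPM, a ratio of 1.88 (1.68 to 2.11), and 2.03 (1.80 to 2.30) without the top cells. Mmp12 was at 12.3 and 7.92 CPM, a ratio of 1.55 (1.32 to 1.83) that was 3.73 (2.85 to 4.95) without the top cells, since 1 YS-Ex cell held most of that library's Mmp12. Gpnmb was at 19.7 and 24.7 CPM, and its ratio of 0.797 (0.719 to 0.883) turned to 1.15 (1.02 to 1.302) without them. Ccl6 was at 81.6 and 71.1 CPM, a ratio of 1.15 (1.09 to 1.21). Its log2 ratio, 0.20, turned to -0.40 without the upper limit on genes, and that of Mmp12, 0.63, to -0.22.

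Within a class of cells the order of the libraries changed. In Cpa3-low cells all 8 members were lower in Em-Ex, with ratios from 0.0330 for S100a8 to 0.753 (0.684 to 0.830) for Spp1. Without each gene's highest cell of each library, 7 stayed lower, Mmp12 at 0.531 (0.380 to 0.760) in place of 0.177, Gpnmb at 0.141 in place of 0.0860 and Ccl6 at 0.196 in place of 0.130 (0.121 to 0.138). The Spp1 ratio was then 1.10 (0.934 to 1.29), an interval that holds 1. There were 641 such cells in Em-Ex, 36 of them high for a set, and 69 in YS-Ex, 13 of them high for a set. In Cpa3-high cells, 6 members were higher in Em-Ex, Lyz2 by 4.80 times (4.13 to 5.62), Spp1 by 3.94 times (3.33 to 4.68), Mmp12 by 3.47 times (2.18 to 5.74) and Ccl6 by 2.00 times (1.79 to 2.24). The S100a8 and S100a9 ratios in these cells were 0.305 (0.181 to 0.499) and 0.401 (0.239 to 0.657), so the pair was higher in YS-Ex in these cells too. The directions in Cpa3-high cells held without each gene's highest cell of each library, where Gpnmb moved from 1.52 (1.24 to 1.85) to 2.95 (2.28 to 3.86). Different clusters of cells, from a clustering without the members, made up these classes in each library. Of the Cpa3-high cells high for neither set, most of the Em-Ex ones lay in clusters 3, 4, 6, 7 and 8 (773, 515, 445, 262 and 223 cells) and most of the YS-Ex ones in clusters 1, 2 and 9 (847, 801 and 201 cells). Of the Cpa3-low cells high for neither set, cluster 5 held 473 of 605 from Em-Ex and 17 of 56 from YS-Ex.

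**Figure D5:**
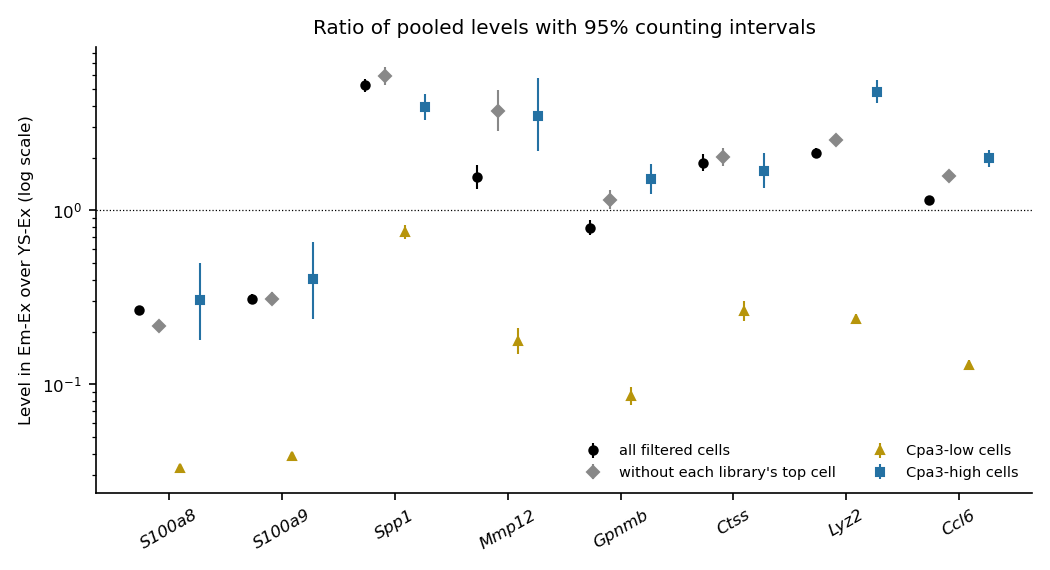
Level in Em-Ex over level in YS-Ex (log scale) for each member, with 95% counting intervals, over all filtered cells, without the top cell of each library, in Cpa3-low cells and in Cpa3-high cells. All Cpa3-low points, drawn with their top cells, lie below 1, S100a8 and S100a9 lie below 1 throughout, and Gpnmb crosses 1 when the top cells are left out (0.797 and 1.15).

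Cells were also clustered with the members left out. Of 14 clusters, cluster 10 (115 Em-Ex and 18 YS-Ex cells) held the most member UMIs. Its Em-Ex cells had 83.6% of that library's neutrophil-type UMIs and 81.8% of its UMIs summed over the macrophage-type genes and Lyz2. For its YS-Ex cells these shares were 98.2% and 82.2%. It took in 5 of the 6 neutrophil-type cells, 40 of the 43 macrophage-type Cpa3-low cells and 14 of the 23 macrophage-type Cpa3-high cells. The largest class in it were 68 Cpa3-high cells high for neither set, 65 of them from Em-Ex, and 6 were Cpa3-low cells high for neither. In it, 12 of 13 macrophage markers were at least 2-fold over the other cells, but S100a9 and S100a8 led its genes by fold, so it is not named. With 100 principal components in place of 50, the cluster held 49.5% and 56.8% of the neutrophil-type UMIs.

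The third Em-Ex neutrophil-type cell lay apart in cluster 5 (493 Em-Ex and 18 YS-Ex cells), where 4 of 5 neutrophil progenitor markers were at least 2-fold over the other cells. Of the Em-Ex macrophage-type Cpa3-high cells, 7 lay in cluster 3 among 773 Cpa3-high cells of that library high for neither set. Of the 3 macrophage-type Cpa3-low cells outside cluster 10, all from Em-Ex, 1 lay in cluster 5 and 2 in cluster 13. Cluster 13 (27 Em-Ex and 4 YS-Ex cells) had 4 of 4 stromal markers at least 2-fold over the other cells. Its 2 cells had 67 Spp1 UMIs and 13 Gpnmb UMIs, none of C1qa, Csf1r or Cd68, and 5 and 12 UMIs of the stromal marker Sparc, so macrophage markers went against the name there.

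Across cells, the genes most like each set were given by Pearson's r of log-normalized values, as a description over cells that share a library and differ in depth. In Em-Ex (3071 cells), Stfa1 (a stefin, r = 0.84), 2010005H15Rik (0.50), Hp (haptoglobin, 0.35) and Ly6c2 (0.31) were most like the summed neutrophil-type genes. In YS-Ex (2087 cells) they were 2010005H15Rik (0.69), Mmp8 (0.57), Glrx (0.22) and Ncf1 (a subunit of the phagocyte oxidase, 0.21). For Lyz2 itself r was 0.19 in the Em-Ex library and 0.51 in that of YS-Ex.

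Most like the macrophage-type genes in Em-Ex were Bcl2a1b (0.61), C1qb (0.58), Trem2 (a lipid-sensing receptor, 0.58) and C1qc (0.57), and in YS-Ex Igf1 (a growth factor, 0.61), Ccl12 (0.57), Dab2 (an endocytic adaptor, 0.54) and Ccl2 (0.53). Lyz2 stood at 0.61 and 0.51 and Ccl6 at 0.58 and 0.58. The r between S100a8 and the macrophage-type genes was 0.02 in Em-Ex and 0.12 in YS-Ex.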

How the data were processed

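Sorted CD31+CD45+c-Kit+CD41- cells of Em-Ex and YS-Ex cultures were profiled by droplet single-cell RNA sequencing, 1 library per tissue. The authors deposited raw UMI counts per gene and cell for both libraries in 1 table, made with bcl2fastq 2.19.1.403 and Cell Ranger 2.0.1 on mm10 per the submitters' processing notes; the annotation release is not given in the sources used here. In each library a gene had UMIs in at least 30 barcodes or was listed at 0, so weaker genes were not analysed here. Every barcode named its library, and 0 columns stayed unmapped.

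Kept cells had 1000 to 5000 genes and at most 5% of their UMIs from 13 mitochondrial genes, which left out 433 Em-Ex and 950 YS-Ex barcodes. These limits are in the study's methods, as a guard against broken cells and doublets, yet the table held 3504 Em-Ex and 3037 YS-Ex barcodes, the cell numbers in its figures, so the counts here are lower. No doublet caller was run. Levels were pooled UMIs per 1000000 (CPM) with exact Poisson 95% intervals, shares had Clopper-Pearson intervals, and ratios had conditional binomial intervals. All cover counting error only, and depth sets their width. Cells are not replicates, so no test was run. Log2 ratios used a prior count of 0.5. A call was a ratio past 2-fold among genes with at least 5 CPM, or, in the high cells, 20 CPM and 5 UMIs. Cpa3-high meant at least 2000 CPM of Cpa3. Thinned values used 3000 UMIs drawn from each cell, and no kept cell was shallower.

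Clusters (scanpy 1.11.5, leidenalg 0.10.2) used 2000 variable genes without the members, 50 principal components, 15 neighbors and resolution 1. Scripts ran on Python 3.11.15 with numpy 2.4.6, scipy 1.17.1 and pandas 2.3.3, and were tested on simulated data. Named genes were the members, the markers and pathway lists by counts with the highest-level genes as examples, the genes most like a set, and genes named because a count of 5 or fewer rests on them. Some genes that fall under the rules are not reported here, and sums and counts are over the genes reported. The members and lists were chosen with earlier results of these data known. Alternatives were other limits, filters and cell weights; leaving out top cells, also within a class, and using Cpa3-low or Cpa3-high cells alone were chosen after seeing the data, as was leaving out the cells with most Spp1 or the deepest neutrophil-type cells.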

Additional observations from a re-analysis of the deposited data

Results flagged for a closer look

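Barcodes outside the limits on genes and mitochondrial UMIs also carried the members. In the 950 removed YS-Ex barcodes, S100a8 and S100a9 summed to 269 CPM (257 to 281), against 4.48 CPM in the kept Cpa3-high cells of that library and 256 CPM over all its kept cells. The macrophage-type genes summed to 324 CPM (311 to 337) there, against 17.98 CPM in kept Cpa3-high cells and 71.1 CPM over all kept cells. Of these barcodes, 3 were high for the neutrophil-type genes, all over the mitochondrial limit, and 13 for the macrophage-type genes, 11 over the mitochondrial limit and 2 over the gene limit. As many neutrophil-type cells were thus removed as kept in YS-Ex, and 13 macrophage-type cells were removed beside 14 kept.

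In the 433 removed Em-Ex barcodes, the neutrophil-type genes summed to 5.10 CPM (3.44 to 7.29), against 1.56 CPM in kept Cpa3-high cells and 73.1 CPM over all kept cells, and 0 barcodes were high for them. The macrophage-type genes summed to 58.5 CPM (52.5 to 65.04), against 45.4 and 183 CPM, with 3 barcodes high, all over the mitochondrial limit. The 4 sums were picked out because they exceeded the level in kept Cpa3-high cells.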

How the results depend on the processing

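No paired analysis was possible because each tissue had 1 library, and with 1 library none could be left out. Of the 64 alternative values of the Em-Ex over YS-Ex ratios, 8 turned direction, 37 moved by more than their counting interval and 19 did not. Without the upper limit on genes the log2 ratio of Mmp12 was -0.22 and that of Ccl6 -0.40, and over every deposited barcode they were -0.31 and -0.40. The log2 ratio of Gpnmb was 0.30 as a mean over cells, 0.36 thinned, 0.20 without the top cell of each library and 0.60 in Cpa3-high cells alone. Members at least 2-fold higher in Em-Ex numbered 0 over every deposited barcode, 1 at up to 10% mitochondrial UMIs, 1 without the upper limit on genes and 4 without the top cell. The Cpa3-low over Cpa3-high ratios kept their direction in 80 of 80 alternative values, with a YS-Ex median log2 ratio of 7.35 at the lower and 6.70 at the higher Cpa3 limit tried, 7.56 over every deposited barcode (3.12 in Em-Ex) and 6.47 as a mean over cells. The median share of UMIs in the top cells was 76.4% in Em-Ex and 93.6% in YS-Ex thinned, 93.1% and 100% in the top 5% of cells, and 93.0% in YS-Ex over every deposited barcode. At a limit of 300 CPM, 5 Em-Ex cells were neutrophil-type high, 130 Em-Ex and 27 YS-Ex cells macrophage-type high, and 2 YS-Ex cells both. At 3000 CPM, 24 Em-Ex and 7 YS-Ex cells were macrophage-type high and 0 YS-Ex cells both, and without Ctss 0 YS-Ex cells were both. Among Cpa3-low cells alone, 33 Em-Ex cells were macrophage-type high. Over every deposited barcode, 6 YS-Ex cells were neutrophil-type high, 27 macrophage-type high and 2 both. The cluster with most neutrophil-type UMIs at 100 principal components held 49.5% of them (Em-Ex) and 56.8% (YS-Ex). That with most UMIs of the macrophage-type genes and Lyz2 together held 79.9% and 76.5% of those, or 77.1% in Em-Ex at resolution 0.5. The causes of these changes were not tested. With 3 neutrophil-type cells in each library, their number and level are measured no more finely than a few cells allow.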
